A study of Rattus norvegicus with 21 samples.

Results

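The hippocampus of male SD rats was compared 48 h after repeated hypobaric hypoxia with the hippocampus of rats kept at normal oxygen, in 7 of the 21 libraries of the series. The exposed group held 3 libraries, 1 for each rat killed 48 h after its last exposure, and the control group held 4. Hypobaric hypoxia means low air pressure and therefore low oxygen, as at high altitude. Exposed rats were taken in a hypobaric chamber to a simulated 28000 ft and held there for 5 min, in 6 cycles spaced 3 days apart. All rats carried the WT label for genotype and entered the study at 4 weeks of age, followed by 2 weeks of acclimation, and the controls were labelled as having no treatment. Of 8 exposed rats 1 died during exposure. The libraries were chosen by their titles, and genes were kept with a mean normalized count of at least 10 over the 7 libraries. That left 15029 of the 30560 gene IDs in the deposited table. A further 6466 IDs had reads but a lower mean, and 9065 had no read in any of the 7 libraries. A normalized count is the number of reads in a gene divided by a size factor for its library.

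The hippocampus forms new memories, and its pyramidal neurons are known as some of the brain cells most easily harmed by a lack of oxygen. Cells answer low oxygen through the hypoxia-inducible factors, which are broken down while oxygen is plentiful and otherwise switch on genes for glycolysis, vessel growth and red cell formation. Much of that answer fades after oxygen returns, and tissue taken a day or more later can show slower changes in glia, vessels or synapses. The deposited table gave Ensembl rat gene IDs without names, and none of them could be paired with a gene name here. Genes of these pathways, markers of cell types and sequences of the genes are therefore not analysed here, and results are given as numbers of IDs, by classes of genes and for 4 example IDs.

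No gene was called between 48 h and control by limma or edgeR, and 3 were called by DESeq2. limma put 0 of the 15029 genes tested (0%) under an adjusted p of 0.05, the smallest being 0.927. An unadjusted p under 0.05 was reached by 238 genes (1.58%), of which 132 (0.878%) were higher and 106 (0.705%) lower at 48 h, against 751 expected with no effect. edgeR on the recovered reads called 0 genes and put 489 under that unadjusted level, 208 higher and 281 lower. DESeq2 called 3 genes (0.0209%) and put 636 under it, 243 higher and 393 lower, so the count methods gave more lower than higher genes and limma the opposite. Without controls 1 and 2 limma too gave more lower genes, 115 higher and 252 lower. Leaving out 48 h replicate 3 lowered the number at an unadjusted p under 0.05 to 78, leaving out control 1 alone gave 443, and leaving out control 3 alone gave 400, with 0 genes called by limma each time.

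The 7 libraries were not equally reliable. Reads in genes numbered 11874931, 17190155 and 11214566 in 48 h replicates 1, 2 and 3, against 4654096, 15322551, 14714280 and 14298303 in controls 1 to 4. Control 1 was thus the shallowest library by far. A single read was worth 4.32 normalized counts there and 0.809 to 1.12 in the other 6, and 886 of the tested genes had no read in it, against 37 to 93 in the others. Control 1 lay at least 4-fold above all other 6 libraries at 975 genes and at least 4-fold below them at 1066. For control 2 these numbers were 122 and 79, for 48 h replicate 3 they were 109 and 6, and for 48 h replicate 2 they were 20 and 17. In 48 h replicate 1 and in controls 3 and 4 they were 4 or fewer. Dissection was checked by the place of each library between cortex and hippocampus, at genes at least 4-fold apart between the tissues, with the cortex median at 0 and the hippocampus median at 1. The 48 h libraries lay at 1.01, 1.08 and 0.91, and the controls at 0.937, 0.427, 0.998 and 1.03. Control 2 lay between the tissues, and the other 6 libraries lay near the hippocampus end. The mean difference of 0.152 (48 h minus control) was within the spread (exact permutation test, two-sided, n = 3 and 4, p = 0.514, the smallest possible p being 0.0571). Without control 2 the difference was 0.0116.

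**Figure D1:**
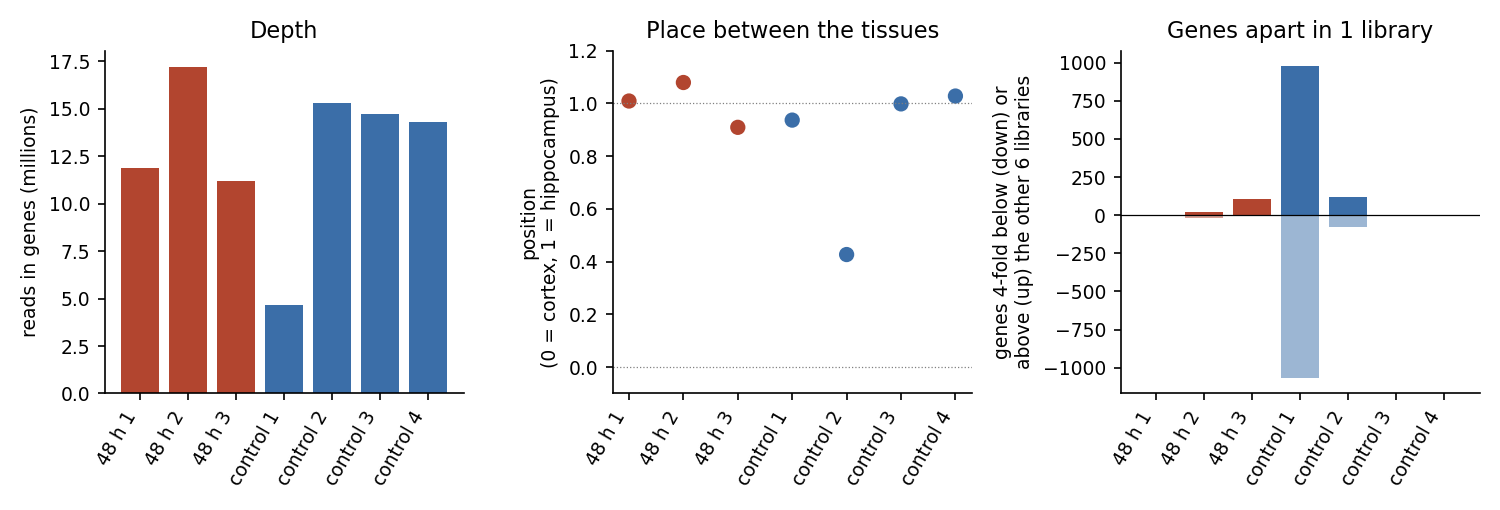
Reads in genes (left), position between cortex at 0 and hippocampus at 1 (middle), and the number of genes at least 4-fold above (bars up) or below (pale bars down) the other 6 libraries (right), for the 3 libraries at 48 h (red) and the 4 controls (blue). Control 1 stands apart in depth, with 4654096 reads, and in the number of genes, and control 2 in its position of 0.427.

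The distances between libraries of different groups overlapped those between libraries of the same group, with control 1 and without it. This distance was taken as the median over genes of the absolute log2 difference. It was 0.277, 0.356 and 0.359 for the 3 pairs of 48 h libraries. The 9 pairs of a 48 h library with controls 2, 3 or 4 ran from 0.212 to 0.434, with a median of 0.301. The 3 pairs among these controls lay at 0.256, 0.361 and 0.407. The 2 most alike of all 7 libraries came from different groups, 48 h replicate 1 and control 3, at 0.212. All pairs with control 1 were far apart, at 0.956 to 1.04 with the 48 h libraries and at 0.973 to 1.11 with the other controls. In such pairs 48.1% to 54.4% of genes differed at least 2-fold, against 5.15% to 19.8% in pairs without control 1. These are descriptions, since pairs share libraries. In each of the 9 pairs within a group the read counts differed by more than sampling noise, with a chi-square of 33 to 286 for each degree of freedom, so each library was counted as a sample of its own.

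**Figure D2:**
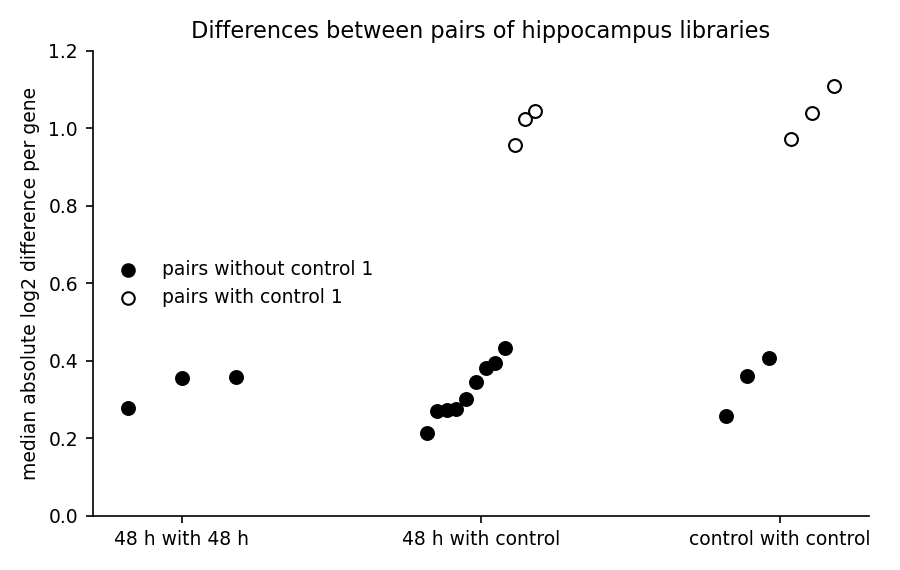
Median absolute log2 difference per gene for each pair of libraries, within 48 h (3 pairs), between 48 h and control (12 pairs) and within control (6 pairs). Filled points are pairs without control 1, which overlap among the 3 kinds of pair, and open points are pairs with control 1, all at 0.956 or above.

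The spread of single genes followed the same library. The median SD per gene on the log2 scale was 0.285 at 48 h (n = 3) and 0.64 in controls (n = 4), and 0.287 in controls without control 1 (n = 3). At the median gene the 95% interval of the log2 change was 0.882 wide on each side, and at 5592 genes (37.2%) no part of the interval passed a 2-fold change. For these genes a change of 2-fold or more lies outside the interval of the fit. Without control 1 the median width was 0.604 on each side and the share was 62.3%. The smallest adjusted p without control 1 was 1.

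Most log2 changes were small and centred near 0. Their median was 0.01, with quartiles of -0.29 and 0.3 and with 5th and 95th percentiles of -0.87 and 1.09, on the log2(normalized count + 1) scale. This scale understates the change of low genes. A mean change of at least 2-fold was seen at 868 genes higher at 48 h and at 521 lower, and one of at least 4-fold at 105 and 76. In 712 of the 868 higher genes (82%) control 1 was the lowest of the 4 controls, and in 340 of the 521 lower genes (65.3%) it was the highest. Without control 1 the numbers at 2-fold were 396 higher and 338 lower, and without controls 1 and 2 they were 345 and 281. The part of depth in this was not tested.

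The size of the changes followed the level of the gene. Among 2597 genes with a mean of 10 to 50, the median SD per gene was 0.53 at 48 h and 1.18 in controls, and 553 genes were at least 2-fold higher and 208 at least 2-fold lower. Their median log2 change of 0.18 was 0.06 without control 1, in which 754 of these genes had no read. Among 3683 genes of 50 to 200 the median change was 0.04, with 257 genes at least 2-fold higher and 132 lower. Among 6024 genes of 200 to 1000 it was -0.01, with 52 higher and 107 lower. Among 2725 genes above 1000 it was -0.05, with 6 higher and 74 lower. These counts moved with control 1. Without it they were 213 higher and 125 lower in the lowest class, 115 and 105 in the next, then 49 and 76, and 19 and 32 above 1000. The share of genes whose interval lay within a 2-fold change was 3.35% in the lowest class and 29.6%, 50.3% and 50.8% in the next 3. The change was thus bounded most often at abundant transcripts and seldom at scarce ones.

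At the most abundant transcripts the groups overlapped. The 10 genes of the highest mean took 14.7% to 20.6% of the reads of a 48 h library. Their log2 changes ran from -0.4 to 0.19, and the groups overlapped at all 10. Among the 100 genes of the highest mean the median change was -0.05, with a range of -2.56 to 0.66, 4 genes were at least 2-fold apart, and the groups overlapped at all 100. The smallest p among them was 0.0516 (limma adjusted p = 0.927).

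All 3 libraries at 48 h lay above all 4 controls at 266 genes (1.77%), and all 3 lay below them at 246 (1.64%). With random labels, 1 of the 35 arrangements of 3 and 4 libraries puts all 48 h libraries above, and 1 puts them all below. Both together make a share of 0.0571. Each observed share was below 1 in 35, so the counts show no excess over random labels. The median log2 change of the first was 0.68 and of the second -0.71. At 87 of the higher genes (0.579%) and 71 of the lower ones (0.472%) the mean change was also at least 2-fold. Genes of low level had more of these, 2.58% above and 2.39% below all controls at a mean of 10 to 50, against 1.03% and 1.28% above 1000. The numbers are larger with fewer libraries, because overlap is then easier to avoid, and the share under random labels is then higher too. Without control 1 they were 609 (4.05%) and 615 (4.09%), and without controls 1 and 2 they were 1140 (7.59%) and 1320 (8.78%). Each of these shares was still below its share under random labels, so the larger numbers show no excess either.

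**Figure D3:**
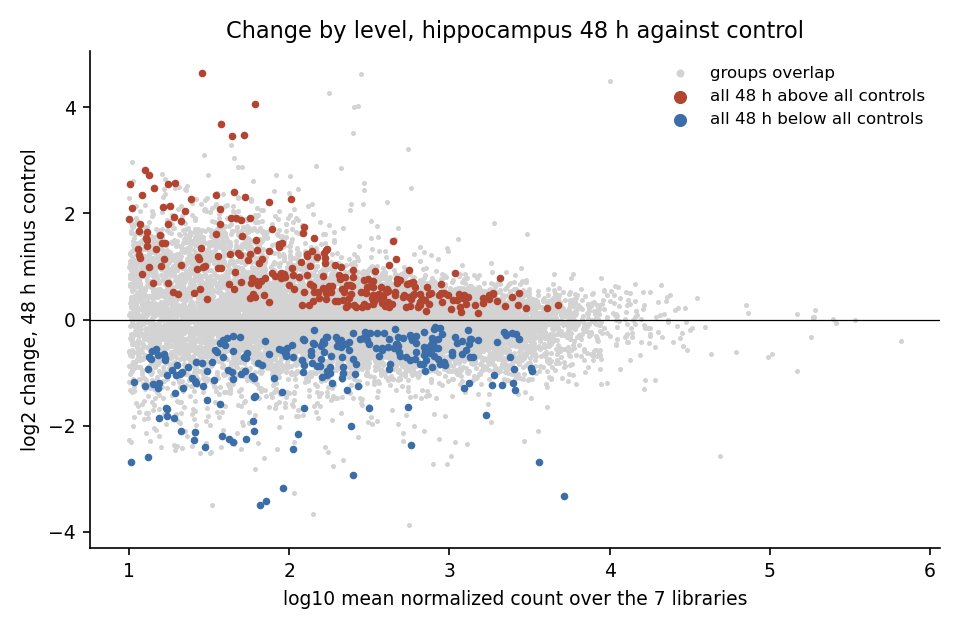
Log2 change of each of the 15029 genes (48 h minus control, vertical) against the log10 of its mean normalized count over the 7 libraries (horizontal). Red points are the 266 genes at which all 48 h libraries lay above all controls and blue points the 246 at which all lay below, and the cloud narrows with rising level.

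Few IDs had reads in 1 group and none in the other. Of all 30560 IDs, 31 had reads in each 48 h library and none in any control, and 1 of these passed the filter on the mean. The most reads such an ID had over the 3 libraries was 325, of which 323 lay in a single library. Reads in each control and none at 48 h were found at 5 IDs, with at most 9 reads in total, and none of these passed the filter. With the shallow control 1 left out the numbers were 41 and 43, so the excess of IDs found at 48 h alone was not seen. A gene with no read in a library may still have had up to 12.9 normalized counts in control 1 and 2.43 to 3.35 in the other 6, the limit that a count of 0 allows. These limits cover counting error only.

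The 4 IDs shown were those with the smallest unadjusted p in each direction, a choice made after their values were known. Their intervals and the gap between their groups are thus no further support. ENSRNOG00000023561 had 5.49, 124 and 67.1 normalized counts in 48 h replicates 1 to 3, against 0, 0, 0.926 and 1.82 in controls 1 to 4. All 48 h libraries were above all controls, though 48 h replicate 1 lay far below the other 2 and rested on 5 reads. The hippocampus at 24 h gave 26.9, 8.69 and 11 in replicates 2 to 4. The log2 change was 4.64 (SE 1.03, 95% interval 2.34 to 6.94, limma adjusted p = 0.927). Over summed reads, 218 at 48 h and 3 in controls, the ratio scaled for depth was 84.1, with an interval for counting error alone of 28.4 to 411. DESeq2 called this gene (adjusted p = 0.00526), and edgeR did not (adjusted p = 0.924). Its mean in cortex was 38.5 ± 38.8 in the 3 libraries at 48 h and 28.8 ± 22.2 in the 4 controls, here and for the next IDs with the SD. The hippocampus of control rats was thus low in this transcript beside their cortex, where single libraries ranged from 8.82 to 57.9.

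ENSRNOG00000049911 was the steadier of the 2 higher IDs. It had 360, 299 and 177 normalized counts in 48 h replicates 1 to 3, against 129, 139, 128 and 125 in controls 1 to 4. The controls lay close together, and the lowest 48 h library was above the highest of them. The log2 change was 1.03 (SE 0.27, 95% interval 0.42 to 1.64), with a limma adjusted p of 0.927 and a DESeq2 adjusted p of 0.28. The hippocampus at 24 h gave 153, 130 and 121, near the controls. Its mean in cortex was 139 ± 82.1 (n = 3) at 48 h, against 116 ± 24.6 (n = 4) in cortex controls. Leaving out each library in turn kept its log2 change between 0.81 and 1.33.

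ENSRNOG00000003585 and ENSRNOG00000016999 were the lower IDs. ENSRNOG00000003585 had 11, 12.9 and 3.35 normalized counts in 48 h replicates 1 to 3, against 34.5, 38.9, 35.2 and 44.5 in controls 1 to 4. Its values rested on 10, 16 and 3 reads in the 48 h replicates, and on 8 reads in the shallow control 1. The groups did not overlap, and the log2 change was -2.12 (SE 0.48, 95% interval -3.19 to -1.05, limma adjusted p = 0.927, DESeq2 adjusted p = 0.0592). At 24 h it had 26.9, 22.2 and 29.9, between the other groups. Its mean in cortex was 31.3 ± 17.8 (n = 3) at 48 h, against 17.4 ± 11.5 (n = 4) in cortex controls, and the log2 difference between the responses of the tissues was -2.99 (limma adjusted p = 0.998). ENSRNOG00000016999 had 20.9, 4.85 and 16.8 in 48 h replicates 1 to 3, against 94.9, 84.2, 49.1 and 42.7 in controls 1 to 4, a log2 change of -2.31 (SE 0.58, 95% interval -3.59 to -1.02, limma adjusted p = 0.927). Its highest values were those of controls 1 and 2. In cortex its mean was 155 ± 87.3 (n = 3) at 48 h and 90.6 ± 68.7 (n = 4) in controls. Single cortex controls ran from 3.57 in replicate 3 to 170 in replicate 1, and overlapped the hippocampus controls. Hippocampus control 2 also lay toward cortex in position. Without control 2 the log2 change was -2.18, and without controls 1 and 2 it was -1.83. The part of position in the change was not tested.

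**Figure D4:**
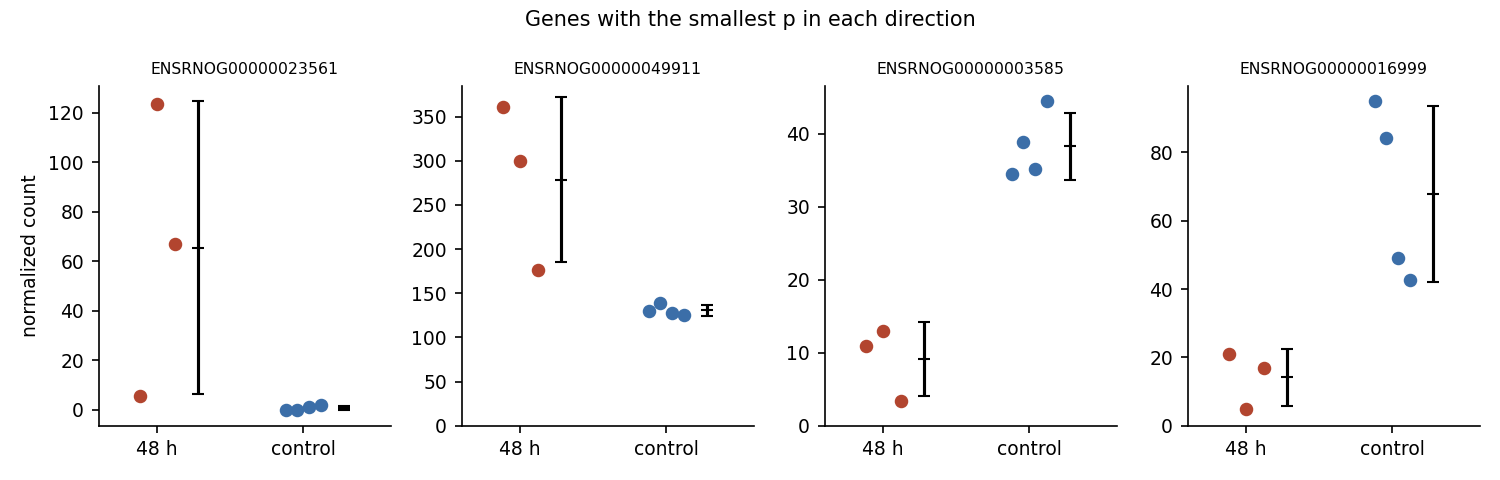
Normalized counts of the 4 example IDs in the libraries at 48 h (red, left in each panel) and in controls (blue, right), with the mean and SD as bars beside the points. ENSRNOG00000049911 lies at 177 to 360 at 48 h, above the controls at 125 to 139, and ENSRNOG00000003585 lies below its controls.

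The other 2 genes called by DESeq2 drew much of their difference from 1 or 2 libraries. The first had 7.69, 117 and 1084 normalized counts in 48 h replicates 1 to 3, against 0, 12.7, 5.55 and 8.17 in controls 1 to 4, so that replicate 1 lay among the controls and replicate 3 carried most of the sum (DESeq2 adjusted p = 0.00869, limma adjusted p = 0.927). The second had 167, 115 and 154 at 48 h, against 33022, 215, 275 and 2217 in controls 1 to 4 (DESeq2 adjusted p = 0.00526, limma adjusted p = 0.927). There controls 1 and 4 were far above all other libraries, and the 48 h libraries lay just below the lowest control.

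Since no gene could be named, genes that differ between the tissues were described and cell type markers were not. Such genes mark a tissue and no single cell type. They were taken from the 24 h hippocampus and all cortex libraries, without the 7 libraries compared here. They were genes at least 4-fold apart between the medians, with at least 100 normalized counts in the higher tissue. The hippocampus side thus rested on the 3 exposed libraries at 24 h alone, and the list can favour genes high in those. Of 171 genes high in cortex, 169 passed the filter on the mean, and of 137 high in hippocampus all passed. The cortex-high genes had a median log2 change of -0.85 at 48 h against control, 72 of the 169 (42.6%) were at least 2-fold lower and 2 (1.18%) at least 2-fold higher. The hippocampus-high genes had a median of 0.65, with 48 of 137 (35%) at least 2-fold higher and 2 (1.46%) lower. Over all genes the median was 0.01, with 5.78% at least 2-fold higher and 3.47% at least 2-fold lower. An unadjusted p under 0.05 was reached by 7 of the cortex-high genes (4.14%), all lower, and by 2 of the hippocampus-high genes (1.46%), both higher, against 1.58% of all genes. The share in hippocampus-high genes was thus that of the background.

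Much of both shifts lay in single libraries. Measured from the median of the 7 libraries, the cortex-high genes lay at 0, -0.63 and 0 in 48 h replicates 1 to 3, against 0.58, 2.06, -0.01 and 0 in controls 1 to 4. Control 2 was the library high in these genes. Without control 2 their median log2 change was -0.37, and without controls 1 and 2 it was -0.23. The hippocampus-high genes lay at -0.04, 0.17 and 1.25 in 48 h replicates 1 to 3, against 0.16, -0.75, 0 and 0 in controls 1 to 4. Here 48 h replicate 3 was high and control 2 low. The hippocampus libraries at 24 h, which served to choose this list, lay at 0.7, 0.95 and 0.31 in replicates 2 to 4. The part of this choice in a rise at 48 h was not tested. The median change of the hippocampus-high genes was 0.29 without control 2 and 0.3 without controls 1 and 2. Without control 1 alone both shifts were larger, at 0.85 for hippocampus-high and -0.92 for cortex-high genes. A lower level of a gene in whole tissue can mean fewer cells of a type or less RNA in each, and these cannot be told apart here.

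**Figure D5:**
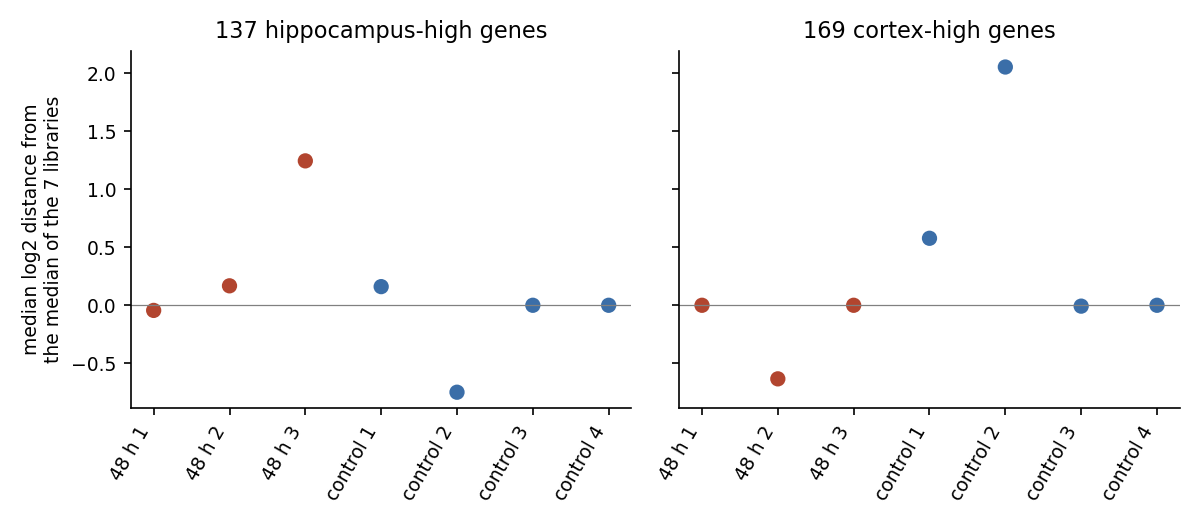
Median log2 distance of each library from the median of the 7 libraries, over 137 hippocampus-high genes (left) and 169 cortex-high genes (right), at 48 h (red) and in controls (blue). Control 2 lies at 2.06 for cortex-high genes and at -0.75 for hippocampus-high genes, and 48 h replicate 3 lies at 1.25 for hippocampus-high genes.

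The genes set apart in 1 library also differed in how many of them were on the 2 tissue lists. Of the 122 genes at least 4-fold above all others in control 2, 42 (34.4%) were cortex-high, which is 24.6% of that list, while 1.12% of all tested genes were cortex-high. Of the 109 such genes in 48 h replicate 3, 23 (21.1%) were hippocampus-high, which is 16.8% of that list, while 0.912% of all tested genes were, and 0 were cortex-high. The median of these 109 genes was 216 normalized counts in that library and 11 in the other 6. In the hippocampus at 24 h their median was 64.7, 28 and 11 in replicates 2, 3 and 4, so replicates 2 and 3 at 24 h were also above that level. The 24 h libraries served to choose the hippocampus-high list, so the share of 21.1% is no separate support. The part of this choice in it was not tested. The 20 genes at least 4-fold above all others in 48 h replicate 2 had a median of 159 there and 1.59 in the other 6. In 24 h replicates 2, 3 and 4 their median was 0.539, 0.966 and 77.9. Of the 975 genes high in control 1 only 1 was hippocampus-high and 3 were cortex-high.

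Against the hippocampus 24 h after exposure, 48 h was not told apart either. In position the 24 h libraries lay at 0.563, 0.906 and 1.08 in replicates 2 to 4, so replicate 2 lay between the tissues, as control 2 did. With this replicate and controls 1 and 2 left out, limma called 0 genes between 48 h and 24 h. limma called 0 of 15029 genes (0%) between 48 h and 24 h, the smallest adjusted p being 1. It put 26 genes under an unadjusted p of 0.05, against 751 expected with no effect. edgeR called 0 and put 57 under it, and DESeq2 called 1 and put 92 under it. Hippocampus control 1 adds to the spread estimated in the limma fit. A number below 751 is thus no sign that 48 h and 24 h are alike. The 95% interval was 0.943 wide on each side at the median gene and stayed within a 2-fold change at 41.3% of genes. The comparisons of 24 h and of 48 h with control share the 4 controls, so their values are set side by side only. The 266 genes above all controls at 48 h had a median log2 change of 0.68 at 48 h and of 0.44 at 24 h, and the 246 genes below had -0.71 and -0.5. The 868 genes at least 2-fold higher at 48 h had 1.38 at 48 h and 1.29 at 24 h, and the 521 at least 2-fold lower had -1.29 and -1.15. In most of these last 2 classes control 1 was the extreme control, as given above.

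The response at 48 h was also set against that of cortex, from the cortex libraries of the same study. As an interaction term in a fit of 20 libraries, 0 of 15029 genes were called (0%), the smallest adjusted p in limma being 0.998. An unadjusted p under 0.05 was reached by 201 genes, against 751 expected with no effect. edgeR and DESeq2 also called 0. The labels give 4 control rats for 4 control libraries of each tissue, so libraries of the 2 tissues share rats, while this fit takes all 20 as independent. The labels do not say which libraries share a rat. With same-numbered libraries of a group taken as 1 rat, an alternative added after seeing the data, limma again called 0. It put 256 genes under an unadjusted p of 0.05, also below 751. Hippocampus control 1 is part of both fits, so numbers below 751 are no sign that the tissues respond alike. The 95% interval of the difference was 1.05 wide on each side at the median gene and stayed within a 2-fold change at 27.1% of genes. The 87 genes above all controls and at least 2-fold higher in hippocampus had a median log2 change of 1.5 there and of 0.12 in cortex. The 71 genes below all controls and at least 2-fold lower had -1.39 in hippocampus and 0.17 in cortex. These genes were picked for their change in hippocampus, so a smaller value in cortex is no sign of a difference between the tissues.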

How the data were processed

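Per the labels' protocols, total RNA was taken with TRIzol from 50 mg of tissue and made into stranded mRNA libraries. Tools named in the submitters' processing notes are featureCounts 2.0.1 (Subread), HISAT2 2.1.0 and fastp 0.20.0. Not given in the sources used here are build, annotation, strand setting and the filter that the column headers mention. What the authors deposited is a table of signal, that is, read counts per gene divided by 1 size factor per library. Values were whole multiples of the smallest value of their column (100% of values in 21 columns, at a tolerance of 0.001 reads), and size factors recomputed from these reads matched the deposited scale to within 3.33e-13%. In 4 columns the factor was within 1% of 1, where an automatic check for whole reads does not apply. Such scaling removes a shift shared by most genes.

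Groups came from titles and tissue labels. The 1 library with conflicting tissue labels was not used. The test was limma 3.58.1 (R 4.3.3) on log2(value + 1) (intensity trend, two-sided, Benjamini-Hochberg over 15029 genes, threshold 0.05). The 10 hippocampus libraries shared the fit, so that the 24 h libraries add to the estimate of the spread. The interaction used 20 libraries. On recovered reads, edgeR 4.0.16 (quasi-likelihood, TMM) and DESeq2 1.42.0 (Wald) served as alternatives, and DESeq2 gave no adjusted p to 645 genes. The scripts were tested on simulated data. Per the labels, each group consisted of several rats.

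Of the 30560 IDs, 0 could be paired with the 47357 rat genes of the reference table, so the 31 gene lists, their use as cell type markers and the parts of the rule for named genes that need symbols could not be applied. For this case the rule takes the 2 IDs of the smallest p in each direction. The genes compared, the lists and the tests were chosen with earlier results of these data known, and the tissue-specific genes and the classes by level were set after seeing the data. Replicate numbers do not pair the samples, since exposed and control rats are different animals and the correlations of same-numbered deviations were 0.06, -0.16 and -0.11.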

Additional observations from a re-analysis of the deposited data

Results flagged for a closer look

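Measures of the 4 control libraries were each checked for a library far from the other 3, by Dixon's ratio against its 95% critical value, in 10 tests. These included the counts of the 4 example IDs, which were picked by their p. Chance flags about 1 in 20 of separate tests, and 3 were flagged. The tests here were not separate, since reads and genes with reads both depend on depth, so the 2 rates are not compared. Hippocampus control 1 stood apart in its reads (4654096) and in the number of genes with reads (15134, against 18578 to 18813 in the other controls). Control 2 of the hippocampus was flagged for its place between cortex and hippocampus (0.427). The group at 48 h has 3 libraries and was not tested in this way.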

How the results depend on the processing

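In limma 0 genes were called between 48 h and control under every alternative run, which covered pseudocounts of 0.1 and 5, no filter or a mean of at least 50, TMM and quantile scaling, no intensity trend, library weights, a block, other libraries in the fit and leaving out libraries. edgeR also called 0, and DESeq2 called 3, 2 higher and 1 lower. Between 48 h and 24 h DESeq2 called 1 and every other alternative 0, and for the difference between the tissues all called 0. The number at an unadjusted p under 0.05, 238 in the text, was 516 without a filter, when 21495 genes were tested. It was 489 in edgeR, 636 in DESeq2 and 586 with library weights. It was 667 with the replicate number as a block, 157 with only the 7 libraries in the fit and 619 with all 20. Each of these was below the 751 expected with no effect over 15029 genes. The number was 367 without controls 1 and 2, 115 higher and 252 lower, against 132 and 106 with all libraries. Without these and hippocampus 24 h replicate 2, which lay between the tissues at 0.563, it was 319. This alternative was added after seeing the data. Leaving out single libraries gave 78 to 443. edgeR gave 208 higher and 281 lower, DESeq2 243 and 393, and library weights 238 and 348. These alternatives move the majority from higher to lower, and the cause was not tested. The replicate block made no call, and neither did pairing the 2 tissues by number, where the correlations of 10 pairs of deviations ran from -0.28 to 0.13. The position difference ran from 0.0116 to 0.212 when single libraries were left out. Genes with all 48 h libraries above all controls numbered 199 to 1140 and below 184 to 1320. The largest were those without controls 1 and 2 (7.59% and 8.78%), where the share under random labels is higher too and was not exceeded. The 4 example IDs kept their direction under every alternative that held them, at log2 changes of 3.03 to 6.59, 0.81 to 1.33, -2.47 to -1.6 and -2.67 to -1.72, and only ENSRNOG00000023561 was called, in DESeq2. No scaling moved the median of all genes by over 0.1. Genes with a mean of 10 to 50 had the widest intervals, 1.72 on each side at the median gene and 1.1 without control 1.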
